A study of Gallus gallus with 4 samples.

Results

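Broad H3K4me3 domains that carried H3K27ac and no H3K27me3 were described in otic-epibranchial progenitors (OEPs), the head ectoderm that later forms the inner ear and the epibranchial ganglia. The domains were chosen by the deposited peaks themselves: an H3K4me3 peak on a numbered chromosome, at least 1570 bp wide, that shared 1 bp or more with an H3K27ac peak and none with an H3K27me3 peak. This rule kept 566 of the 25308 H3K4me3 peaks on numbered chromosomes (2.24%) and of the 27344 H3K4me3 peaks in all. Width, the presence of H3K27ac and the lack of H3K27me3 are therefore properties of the choice and not results.

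The tissue was cut by hand from chick embryos of 8 to 9 somites, and the labels give no genotype or treatment. About 200 pieces were pooled, and whether each library had its own pool is not stated in the paper. Chromatin immunoprecipitation sequencing (ChIPseq) gave 1 library each for H3K4me3, H3K27ac and H3K27me3, and the input library has no peak list here. With 1 library per mark no test between conditions could be made, regions of a library are not replicates, and all comparisons below are descriptions. The intervals given with shares are exact Clopper-Pearson 95% intervals that cover counting error only. The read depth of the libraries is unknown, since the lists hold peaks and no read counts. A stretch outside the peaks of a mark had no peak called, which does not show that the mark was absent there. Pieces of many embryos were pooled, and the paper describes precursors of neural and neural crest cells among OEPs at this stage. Marks found on the same region in the same cells and in different cells therefore cannot be told apart.

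Trimethylation of histone H3 at lysine 4 sits on nucleosomes around the start sites of active genes, where it is laid down by SET1 and MLL complexes that recognise unmethylated CpG-rich DNA. At most genes it forms a short interval around the start site, while at some genes, often those that define the identity of a cell type, it spreads into the gene body. Acetylation at lysine 27 is added by the coactivators CBP and p300 at active promoters and enhancers. Trimethylation at the same lysine is added by Polycomb repressive complex 2 and marks silenced developmental genes. Acetylation and trimethylation of that lysine exclude each other on the same histone tail. The positions given are 1-based on GalGal6. A gene annotation and a genome sequence of that build were not used here, so domains are named by position, without genes or sequences, and the tissue label could not be checked against marker genes.

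Of the 1257 broad H3K4me3 peaks on numbered chromosomes, the 566 domains made up 45.0%. A further 177 broad peaks overlapped both H3K27ac and H3K27me3, 310 overlapped H3K27me3 alone and 204 overlapped neither. As the background of the rule, 36.6% of all H3K4me3 peaks on numbered chromosomes overlapped H3K27ac and 20.4% overlapped H3K27me3. Together the domains spanned 1.26 Mb, or 7.75% of the length under H3K4me3 on these chromosomes. Their median width was 1972 bp (quartiles 1740 and 2406 bp), and the widest measured 7088 bp. The 3 domains closest to the threshold measured 1570, 1570 and 1571 bp, with fold enrichments of 3.20, 3.18 and 3.09. The 3 widest peaks that met the other conditions and missed the width measured 1566, 1566 and 1568 bp, with fold enrichments of 2.68, 2.79 and 5.34. On both sides of the threshold cover by H3K27ac ranged widely, as it lay on 1.34% to 100% of those inside and on 7.15% to 100% of those outside.

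The 10 widest domains showed how differently the 2 active marks can be laid out. The widest, on chromosome 8 at 21503689 to 21510776 (7088 bp, fold enrichment 3.94), held a small H3K27ac peak of 286 bp in its lower part and a wide one of 4216 bp that left it at its upper end. No H3K27ac peak was called at its centre, and 44.1% of its length was covered. On chromosome 5 at 31437277 to 31443410 (6134 bp, 3.76), a pair of H3K27ac peaks of 853 and 1246 bp lay entirely inside the domain and covered 34.2% of it. The domain on chromosome 14 at 6143707 to 6149604 (5898 bp, 4.74) held 3 H3K27ac peaks of 313, 641 and 2325 bp, which covered 55.1%. In these 3 domains, stretches without a called H3K27ac peak lay between the called ones.

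In a second pair of the widest domains, H3K27ac touched only an edge. On chromosome 10 at 16269976 to 16275470 (5495 bp, 4.15), a peak of 285 bp at the upper end covered 5.17% of the domain, and an H3K27me3 peak lay 1488 bp away. On chromosome 3 at 94540497 to 94545708 (5212 bp, 4.72), a peak of 433 bp at the lower end covered 7.23%. These domains qualified as acetylated, although nearly all of their length lay outside H3K27ac.

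The other 5 of the widest domains lay largely or wholly in a single wide H3K27ac peak. That on chromosome 14 at 4528321 to 4533656 (5336 bp, 5.83) was covered throughout by an H3K27ac peak of 7691 bp that reached 2355 bp past its lower end. That on chromosome 1 at 72100410 to 72105596 (5187 bp, 5.59) was covered throughout by a peak of 6857 bp, reaching 1641 bp past the lower and 29 bp past the upper end. Cover was 73.2% on chromosome 26 at 2080923 to 2086077 (5155 bp, 4.75), 99.7% on chromosome 10 at 11394206 to 11399171 (4966 bp, 4.14) and 97.7% on chromosome 4 at 71827147 to 71832013 (4867 bp, 3.33). On chromosome 10 the limits of both marks nearly coincided. Of the 10 widest domains, 5 were thus acetylated over 73.2% or more of their length and 5 over 55.1% or less.

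**Figure D1:**
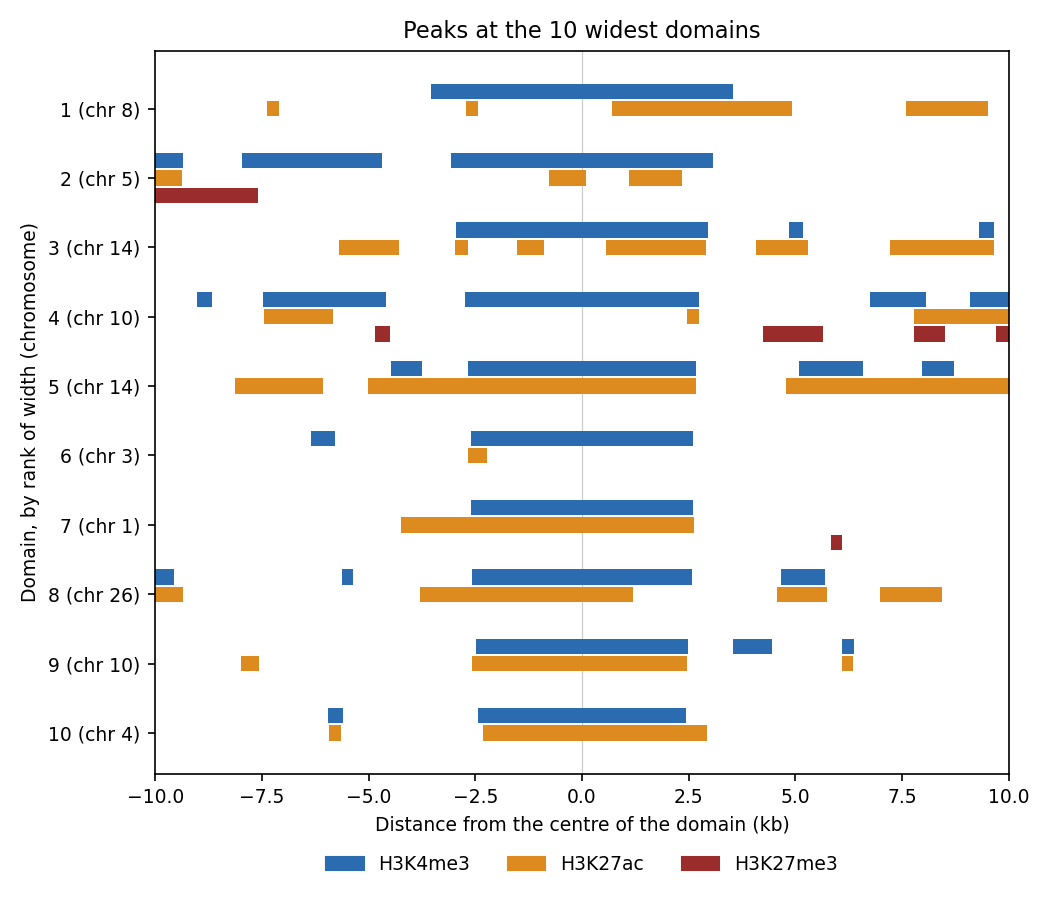
Peaks of H3K4me3 (blue), H3K27ac (orange) and H3K27me3 (red) within 10 kb of the centre of the 10 widest domains, with the distance from the centre in kb on the horizontal axis and the domains ordered by width from top to bottom. Domains 5, 7, 9 and 10 lie almost wholly in H3K27ac, while in domains 4 and 6 the H3K27ac peak sits at an edge and covers 5.17% and 7.23%.

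The same contrast ran through all 566 domains. The share of a domain's length in H3K27ac had a median of 65.3% (quartiles 37.0% and 98.7%), but its distribution was uneven. In 182 domains H3K27ac covered 95% or more, while each of the other steps of 5 percentage points held between 6 and 29 domains. Cover exceeded 90% in 207 domains (36.6%, interval 32.6 to 40.7) and stayed under 25% in 98 (17.3%, 14.3 to 20.7). In 117 domains (20.7%, 17.4 to 24.2) no base lay outside H3K27ac. Cover between 25% and 90% was found in 261 domains (46.1%, 41.9 to 50.3). The narrower acetylated peaks were covered more fully, with 60.5% (59.4 to 61.6) over 90% and 41.1% (39.9 to 42.2) without a base outside H3K27ac. Their median width was 488 bp and that of their widest H3K27ac peak 1000 bp, against 1972 and 1726 bp for the domains. A short peak is more easily enclosed, so width, which the rule used, limits this comparison. Summed over all domains, 64.0% of their length was acetylated.

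**Figure D2:**
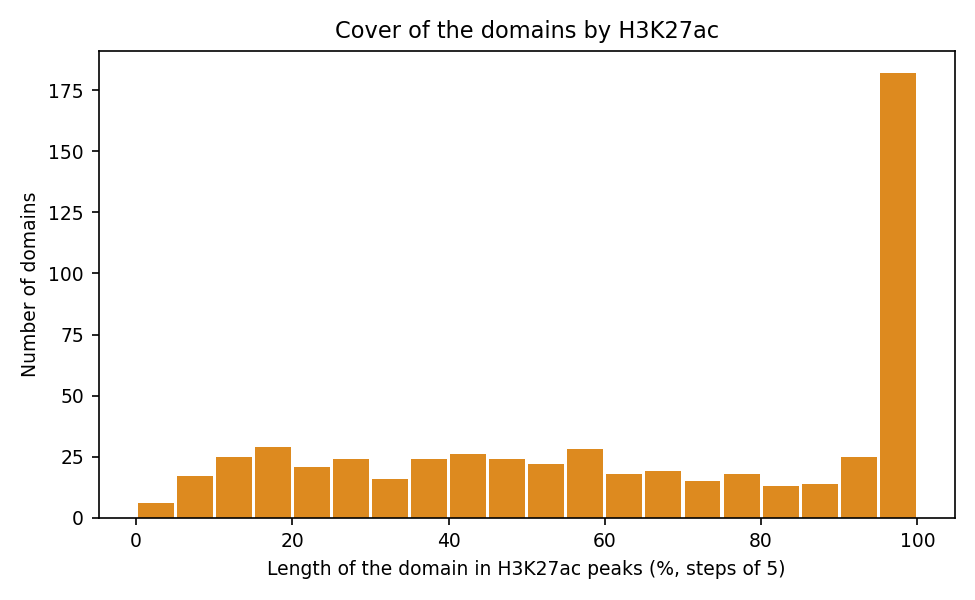
Number of domains (vertical axis) by the percentage of the domain's length that lay in H3K27ac peaks (horizontal axis, steps of 5 percentage points, 566 domains). The last bar, from 95 to 100%, holds 182 domains, and the other bars hold 6 to 29.

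Seen by its ends, H3K27ac passed both ends of the domain in 137 cases (24.2%, 20.7 to 27.95), passed an end on 1 side in 269 (47.5%, 43.3 to 51.7) and stayed inside the domain in 160 (28.3%, 24.6 to 32.2). Where it passed on 1 side, this was the lower coordinate in 136 domains and the higher in 133, which are close to equal numbers. Whether the acetylated side is upstream or downstream of a gene was not tested. The centre of the domain lay in H3K27ac in 376 cases (66.4%, 62.4 to 70.3). At the narrower acetylated peaks, H3K27ac passed both ends in 38.6% (37.5 to 39.8) and stayed inside in 10.4% (9.72 to 11.2). Their centre lay in H3K27ac in 82.7% (81.8 to 83.6), and that of broad peaks with both marks in 52.0% (44.4 to 59.5). As for cover, width, which the rule used, limits the comparison with the narrower peaks. Most domains, 514, held a single H3K27ac peak, 50 held 2 and 2 held 3.

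The domains with the most H3K27ac peaks held both short and wide ones. Besides the domain on chromosome 14 described above, 3 peaks were found on chromosome 7 at 34498641 to 34502137 (3497 bp, fold enrichment 4.42), with widths of 289, 375 and 314 bp. They lay at the start, near the middle and in the last part of the domain and covered 27.97% of it. An H3K27me3 peak of 403 bp began 2188 bp away. On chromosome 33 at 3243321 to 3247954 (4634 bp, 3.98), a peak of 6195 bp came in from the lower side and overlapped by only 175 bp, and a second of 3147 bp covered most of the rest.

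H3K4me3 of the domains was stronger than that of most peaks, within the same list. Their fold enrichment, the signal in the peak divided by the local background as the peak caller estimated it, had a median of 3.32 (quartiles 2.95 and 4.004; range 2.26 to 9.04). Over all H3K4me3 peaks on numbered chromosomes the median was 2.96. A fold enrichment of at least 4 was reached by 143 domains (25.3%, 21.7 to 29.1), against a background of 7.71% of all peaks. At a q-value limit of 0.01, 402 domains passed (71.0%, 67.1 to 74.7), against 42.5% of all peaks. The narrower peaks with H3K27ac and without H3K27me3 stood in between. Their median fold enrichment was 3.02, with 11.3% (10.6 to 12.0) at 4 or more and 50.2% (49.1 to 51.4) past the q-value limit. The rule used width in this same list. Spearman's rho between width and fold enrichment was 0.27 across the domains and -0.05 across these narrower peaks. How far the choice by width sets the contrasts in strength was not tested.

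Among broad peaks, the fold enrichment of H3K4me3 was higher in the classes with H3K27ac, while the share past the q-value limit did not follow the same split. Broad peaks with both H3K27ac and H3K27me3 had a median fold enrichment of 3.32, the same as the domains to 3 digits, and reached 4 in 24.9% (18.7 to 31.9). Broad peaks with H3K27me3 alone had a median of 2.95, with 5.48% (3.23 to 8.64) at 4 or more. Broad peaks with neither mark had a median of 2.94, with 3.43% (1.39 to 6.94) at 4 or more. The median widths were 2029 bp for both classes with H3K27me3 and 1785 bp for the class with neither mark, which was narrower than the domains. The intervals of the shares at 4 or more of the 2 acetylated classes did not overlap those of the 2 unacetylated classes. Between the domains and the broad peaks with both marks, the intervals overlapped, and no difference in H3K4me3 could be seen at these numbers. The q-value limit of 0.01 was passed by 72.9% (65.7 to 79.3) of broad peaks with both marks and by 72.6% (67.3 to 77.5) of those with H3K27me3 alone, whose intervals overlap that of the domains. Of broad peaks with neither mark, 33.8% (27.4 to 40.8) passed it.

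The 5 domains of the highest H3K4me3 fold enrichment were not the widest. The highest, 9.04, was found on chromosome 2 at 63283645 to 63287061 (3417 bp), where 2 short H3K27ac peaks of 286 and 307 bp covered 17.4% of the domain. The peak of 307 bp had a fold enrichment of 7.28. Next was chromosome 5 at 51886880 to 51888475 (7.96), only 1596 bp wide, whose H3K27ac peak of 847 bp had a fold enrichment of 9.44, the highest in the whole H3K27ac list. The next values were 7.80 on chromosome 33 (6534154 to 6536390, 2237 bp), 7.76 on chromosome 7 (5219786 to 5223453, 3668 bp) and 7.42 on chromosome 3 (99208144 to 99212290, 4147 bp). In these last 3 a single H3K27ac peak covered 85.2%, 98.6% and 79.2%. In 4 of these 5 domains H3K27ac did not reach beyond the domain on either side.

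**Figure D3:**
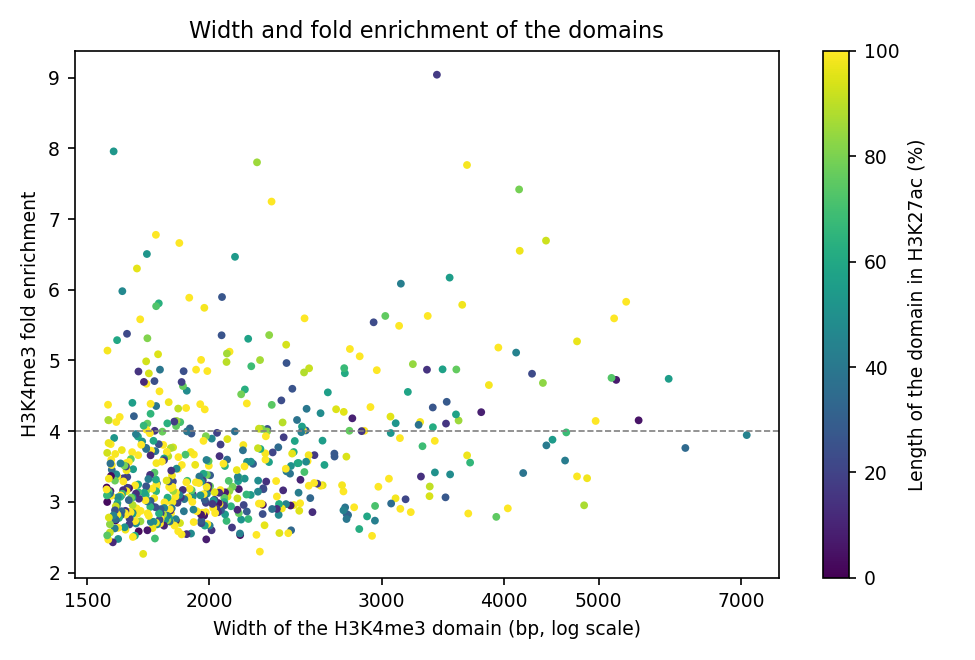
Width in bp (horizontal, log scale) and H3K4me3 fold enrichment (vertical) of the 566 domains, coloured by the percentage of their length in H3K27ac. The dashed line marks a fold enrichment of 4, reached by 143 domains, and dark and light points are mixed over the whole range of width.

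Within the range of width that the rule kept, width and strength were only loosely tied. Across the 566 domains, Spearman's rho was 0.27 between width and H3K4me3 fold enrichment, and -0.02 between width and the share of the length in H3K27ac. These are descriptions over regions of the same libraries, which share depth and background. With the domains ordered by width and cut into 4 classes of 141 or 142, the widest class, of 2418 to 7088 bp, stood apart. Its median fold enrichment was 3.87, with 45.4% (37.0 to 54.0) at 4 or more. In the 3 narrower classes the medians ran from 3.15 to 3.25 and the shares at 4 or more from 16.9% to 20.4%. At least 2 H3K27ac peaks lay in 2.82% (0.773 to 7.06) of the narrowest class and 18.4% (12.4 to 25.8) of the widest. A wider domain has more room to meet a second H3K27ac peak, and these shares were not adjusted for that. The width of the widest overlapping H3K27ac peak of each domain had a median of 1388 bp in the narrowest class and 2499 bp in the widest. The share of the summed length in H3K27ac followed no order of width, at 64.9%, 66.7%, 58.8% and 65.4% from the narrowest class to the widest.

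The strengths of the active marks were tied more closely, although both are ratios over local background at the same region. How far a shared background sets this was not tested. Between the fold enrichment of the domain and that of its strongest H3K27ac peak, rho was 0.49 across the 566 domains, 0.48 across the 177 broad peaks with both marks and 0.41 across the 7139 narrower peaks with H3K27ac and without H3K27me3. Domains with a fold enrichment of at least 4 had H3K27ac peaks with a median fold enrichment of 3.56, against 2.89 in the other 423 domains. Cover was tied to strength only weakly. The share of length in H3K27ac had a median of 76.5% in the former and 60.8% in the latter, the shares of their summed lengths were 68.2% and 62.2%, and rho between fold enrichment and cover was 0.0954 across the 566 domains.

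The H3K27ac peaks at the domains, 619 in number, were wide and strong for their list. Their median width was 1618 bp and their median fold enrichment 2.99, against 756 bp and 2.66 for all 45426 H3K27ac peaks. Of them, 81 (13.1%, 10.5 to 16.0) had a fold enrichment of at least 4, against 3.07% of all. The rule used overlap with H3K27ac, and so touches the width of these peaks. Whether it also touches their fold enrichment, through a tie between width and fold enrichment, was not tested. H3K27ac peaks at the narrower acetylated H3K4me3 peaks stood in between, with a median of 979 bp, a median fold enrichment of 2.83 and 6.76% (6.18 to 7.37) at 4 or more. Only 1 H3K27ac peak, of 7129 bp on chromosome 12 at 9602591 to 9609719, joined 2 domains.

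Where H3K27me3 was present as well, acetylation took up less of a broad peak. In the 177 broad peaks with both marks, H3K27ac covered a median of 47.1% of the length, against 65.3% in the domains. It covered more than 90% in 16.9% (11.7 to 23.3) of them, against 36.6% of the domains, and it passed both ends in 9.04% (5.26 to 14.3), against 24.2%. It stayed inside the peak in 46.9% (39.4 to 54.5), against 28.3%. The widest overlapping H3K27ac peak of each measured 1194 bp at the median, against 1726 bp for that of each domain. None of the intervals of these 3 shares overlapped. The widths of the H3K4me3 peaks themselves were close, 2029 against 1972 bp. The rule used overlap with H3K27me3 to separate these classes, which limits the comparison. How far this choice sets the contrast was not tested.

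Around the domains, H3K27ac fell off steeply at the H3K4me3 ends and then levelled. Of the ends, both sides pooled, 58.7% lay in H3K27ac at 50 bp inside and 38.9% at 50 bp outside. The share was 22.3% at 500 bp, 16.3% at 1000 bp, 13.4% at 5000 bp and 11.3% at 10000 bp from the end. H3K27ac covered 4.80% of the span of the numbered chromosomes, so even 10 kb away the neighbourhood of the domains was richer in H3K27ac. The flanks of 5 kb were covered to 16.3% and those of 50 kb to 10.8%. The narrower acetylated peaks had flanks of the same kind, with 16.8% and 10.3%. Broad peaks with neither mark had 3.67% and 5.92%. By the choice of peaks, each domain and each narrower acetylated peak meets H3K27ac, which raises the cover close to the ends. A broad peak with neither mark meets none, which lowers it there. How much of the contrast is set by this choice was not tested.

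**Figure D4:**
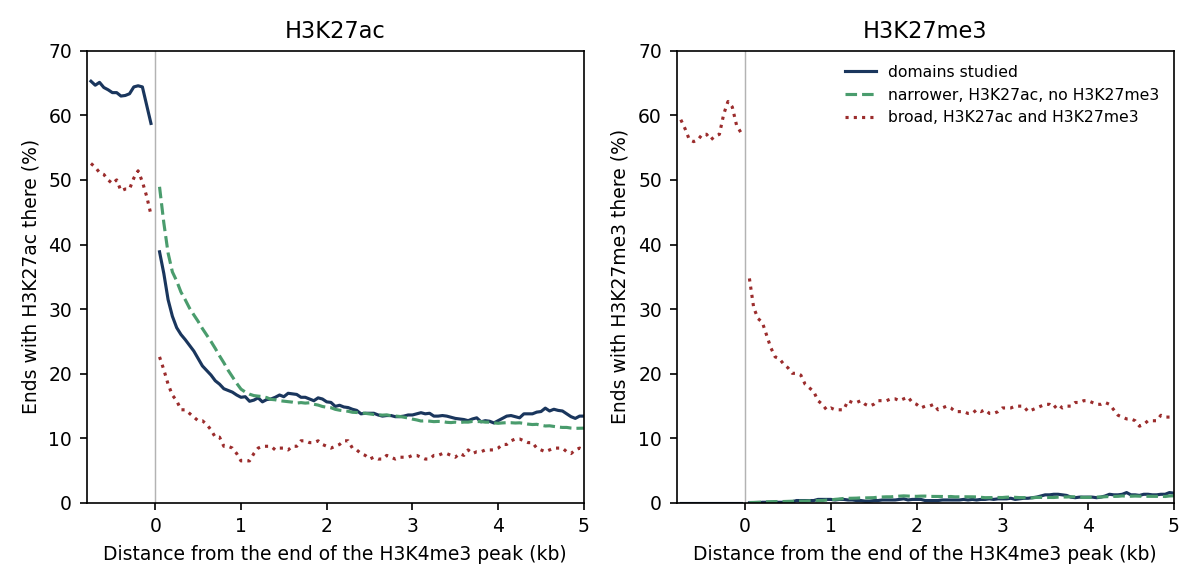
Share of peak ends (vertical axis, %) that lay in H3K27ac (left) or H3K27me3 (right) at a given distance from the end of the H3K4me3 peak in kb, negative inside the peak, for the domains (solid), narrower peaks with H3K27ac and without H3K27me3 (dashed, outside only) and broad peaks with both marks (dotted). H3K27ac at the domains falls from 58.7% at 50 bp inside to 16.3% at 1000 bp outside, and H3K27me3 is at 0 inside the domains and the narrower peaks by the choice of peaks.

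Beyond the overlap that the rule barred, H3K27me3 lay about as far from the domains as from narrower acetylated peaks. The nearest H3K27me3 peak lay at a median distance of 25.9 kb (quartiles 11.4 and 52.0 kb; range 0.15 to 190.2 kb). With only peaks of q up to 0.01 in each list, which leaves fewer H3K27me3 peaks, the median was 53574 bp. In the full lists an H3K27me3 peak was within 5 kb of 60 domains (10.6%, 8.19 to 13.4), where 32.4% of all H3K4me3 peaks lay within 5 kb of H3K27me3 or overlapped it, a share that includes the peaks the rule removes. For the narrower acetylated peaks the median was 24.0 kb, with 12.1% (11.3 to 12.9) within 5 kb, and for broad peaks with neither mark 19.4 kb, with 15.7% (11.0 to 21.4). The flanks of 5 kb were covered by H3K27me3 to 0.659%, against 1.69% of the span of these chromosomes, and those of 50 kb to 1.25%. A peak of H3K27me3 that reaches into the domain removes it by the rule, which lowers the cover close to the ends. The 3 domains nearest to H3K27me3 were separated from it by 150 bp on chromosome 18 (9031870 to 9034009), by 501 bp on chromosome 11 (6345172 to 6347345) and by 554 bp on chromosome 6 (33601459 to 33604007). Their widths were 2140, 2174 and 2549 bp, all above the median of 1972 bp for the domains.

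The domains had close H3K4me3 neighbours more often than most peaks. Another H3K4me3 peak lay within 5 kb of 192 domains (33.9%), against 27.8% of all H3K4me3 peaks, and the median distance was 9.35 kb against 11.3 kb. No neighbour was closer than 919 bp, among the domains or among all H3K4me3 peaks on numbered chromosomes. H3K4me3 covered 4.77% of positions 3 kb from the ends and 2.92% of those 5 kb away, against 1.69% of the span. At 3 kb it covered 2.72% for the narrower acetylated peaks, 2.45% for broad peaks with neither mark and 7.91% for those with both marks. The share with another H3K4me3 peak within 5 kb was 29.9% for the narrower acetylated peaks. It was 25.5% for broad peaks with neither mark and 44.6% for broad peaks with both marks. Broad peaks with H3K27me3 alone had the closest neighbours, with 62.6% within 5 kb and a median of 3.17 kb. No intervals were computed for these shares.

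Of the 566 domains, 490 had no other domain within 50 kb, and the remaining 76 formed 32 pairs and 4 groups of 3. The domains are few, 566 over a span of 960 Mb, which limits how often 2 of them can lie close together. How their spacing compares with that of as many peaks placed at random was not tested. Pairs within 5 kb of each other numbered 7. The closest pair, on chromosome 33, was the strong domain at 6534154 to 6536390 and a domain of 1637 bp that ended 919 bp before it, with no H3K27ac in the gap. On chromosome 2, the domain of the highest fold enrichment was followed after 1300 bp, also without H3K27ac, by a domain of 4418 bp at 63288362 to 63292779 (fold enrichment 6.69). The latter was acetylated over 92.3% of its length, the former over 17.4%. On chromosome 2 at 18038961 to 18053864, 3 domains of 1863, 2812 and 3862 bp followed each other within 14.9 kb, with H3K27ac over 98.6% to 100% of each. The other groups of 3 lay on chromosome 14 at 6469358 to 6543734, chromosome 16 at 2517267 to 2580656 and chromosome 33 at 6481074 to 6536390.

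Dense H3K27ac, often read as a sign of super-enhancers, was about as frequent at the domains as at acetylated H3K4me3 peaks in general. After stitching H3K27ac peaks across gaps of up to 12.5 kb, 127 domains (22.4%, 19.1 to 26.1) lay in a stitched region of 10 or more peaks, against 21.2% of all H3K4me3 peaks with H3K27ac. The H3K27ac peak of 118 domains (20.8%, 17.6 to 24.4) had no H3K27ac neighbour within that distance, against 20.8% of the narrower acetylated peaks. Over all sequences, including those outside the rule, 633 dense regions were found. The 127 domains fell into 110 of these, of which 96 held 1 domain, 11 held 2 and 3 held 3. Those with 3 domains stitched together 33 H3K27ac peaks on chromosome 28 (2435428 to 2607039), 19 on chromosome 14 (6464242 to 6598212) and 13 on chromosome 2 (18005277 to 18065994). With a stitching distance of 5 kb, 2.83% of the domains lay in a region of 10 or more, and with only peaks of q up to 0.01 in each list the share was 8.13%, so the value depends on both settings.

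Domains were denser on small chromosomes. Their number per Mb was 0.453 on the 5 chromosomes of 50 Mb or more, 0.613 on the 7 of 20 to 50 Mb and 1.08 on the 20 under 20 Mb. Small chromosomes also had more H3K4me3 peaks, 35.4 per Mb against 23.9 on the largest, and the domains were 1.90% (1.68 to 2.13) of the H3K4me3 peaks on the largest chromosomes and 3.04% (2.61 to 3.52) on the smallest. The share of domains among acetylated H3K4me3 peaks differed less, at 5.91% (5.25 to 6.62) and 6.77% (5.83 to 7.81), with overlapping intervals. Among broad peaks it was 43.9% (40.0 to 47.9) and 46.8% (41.6 to 52.0). Chromosomes 10 and above held 226 domains (39.9%, 35.9 to 44.1), against 29.3% of all H3K4me3 peaks. The share was 36.6% (35.5 to 37.8) for the narrower acetylated peaks and 42.3% (36.7 to 48.0) for broad peaks with H3K27me3 alone. It was 32.8% (25.9 to 40.2) for broad peaks with both marks and 28.9% (22.8 to 35.7) for those with neither.

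Single chromosomes varied around these values. Chromosome 28 had 14 domains among 249 H3K4me3 peaks (5.62%, 3.11 to 9.25), or 2.74 per Mb, the highest density of the 32 chromosomes, and 82.4% of its 17 broad peaks were domains. Chromosome 27, where 47 peaks were broad, had 11 domains, or 23.4% of them. Chromosome 2 had 42 domains among 3507 H3K4me3 peaks (1.198%, 0.864 to 1.62), the lowest share of the 5 largest. Chromosome 13 had 6 among 550 (1.09%, 0.401 to 2.36). On chromosome 16, 4 of 36 peaks were domains (11.1%), with an interval from 3.11 to 26.1. These chromosomes were singled out after their values were seen.

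**Figure D5:**
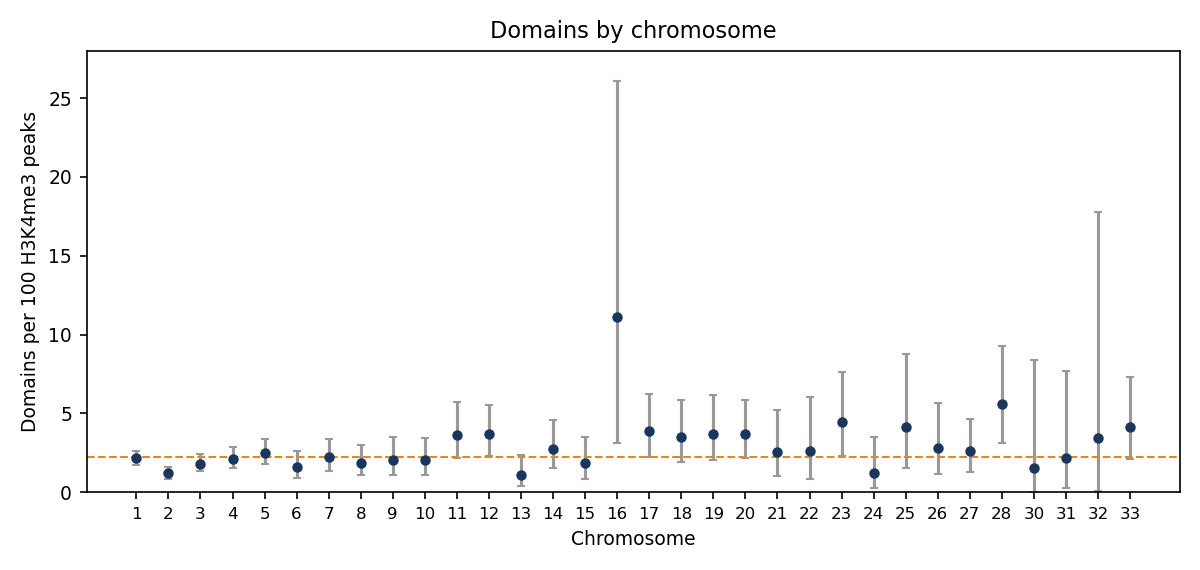
Domains per 100 H3K4me3 peaks (points, vertical axis) on each numbered chromosome (horizontal axis), with exact Clopper-Pearson 95% intervals as bars and the value over all chromosomes, 2.24, as a dashed line. Chromosome 28 lies above the line at 5.62 and chromosome 2 below it at 1.198, while the intervals of the smallest chromosomes are wide.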

How the data were processed

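OEP tissue was profiled by ChIPseq in 4 libraries, each assigned to its mark by its title. The authors ran the NF-core ChIPseq pipeline with default settings on GalGal6, and broad peaks were kept below a false discovery rate of 0.1, separately for each library. The submitters' processing notes name MACS2 for peak calling and BWA for alignment. Whether the input served as control is not given in the sources used here. The deposited fold enrichment is a linear ratio over local background, as given by the caller. The deposited −log10 p-value and −log10 q-value come from the same caller, and the smallest −log10 q-value over the lists was 1.01. The deposited score restates 10 times the −log10 q-value to within 1 and was not used, nor was the p-value. The lists hold no read counts, so depth is unknown.

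Overlaps from 1 bp, distances, flanks and stitched regions were computed with Python 3.11.15, numpy 2.4.6, pandas 2.3.3 and scipy 1.17.1, and checked against direct enumeration on simulated intervals. The span of a chromosome was its largest peak end. Named regions were the 10 widest domains, the 5 with the highest fold enrichment, the 5 with the most H3K27ac peaks, the 3 on each side of the width threshold and the 3 nearest to H3K27me3. Members, lists and comparisons were chosen with earlier results of these data known. The groups by width (4 classes), fold enrichment and chromosome size, the classes of cover and the close pairs were chosen after the lists were seen. The gene table at hand is of another build, so the planned values on start sites, genes and CpG content were not computed.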

Additional observations from a re-analysis of the deposited data

How the results depend on the processing

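Of 72 values computed under 9 other settings, 50 stayed within the counting interval of the reported value (for the number of domains and the summed cover, within 1.5 times), and 22 moved. Stricter lists hold fewer peaks by construction. The setting also fixes the direction of some other moves. A fold enrichment limit of 4 or a width limit of 2512 bp raises the median of that same measure. Leaving out domains within 5 kb of H3K27me3 raises the median distance. Stitching at 5 kb can only lower its share, and a central window of 500 bp can only raise its share. For the remaining values the cause was not tested. Keeping only peaks with q up to 0.01 in each list left 369 domains, with a median width of 2046 bp, a median fold enrichment of 3.72, 2 or more H3K27ac peaks in 6.23%, H3K27ac at the centre of 72.4%, 8.13% in stitched regions of 10 or more peaks and a median distance to H3K27me3 of 53574 bp. An H3K4me3 fold enrichment of at least 4 left 143, with medians of 2292 bp and 4.71, H3K27ac at the centre of 73.4% and 35.7% on chromosomes 10 and above. The widest 1% of H3K4me3 peaks, from 2512 bp, gave 117, with medians of 3191 bp and 3.97, 18.8% with 2 or more H3K27ac peaks and 29.1% in stitched regions of 10 or more. Counting overlaps only from 50% of the shorter peak gave 3.88% with 2 or more H3K27ac peaks and 73.4% with H3K27ac at the centre. The central 500 bp met H3K27ac in 76.5%. Stitching at 5 kb left 2.83% in regions of 10 or more. Without domains within 5 kb of H3K27me3, the median distance was 30104 bp. Merging H3K4me3 peaks within 1 kb and adding chromosome Z shifted no value by more than that margin. The share with H3K27ac beyond both ends moved under none of the 7 settings run on it. The summed cover by H3K27ac ran from 61.9% to 68.2% under its 7 settings, inside its wide margin of 1.5 times. No paired analysis was possible because each mark has 1 library. Planned values on start sites and CpG content were not run. Depth is unknown, so the precision of widths and fold enrichments could not be given.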

Other observations

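Chromosome Z and unplaced sequences were outside the rule. On Z, 40 of 1461 H3K4me3 peaks were broad, and 23 of these (57.5%, exact Clopper-Pearson interval 40.9 to 73.0) overlapped H3K27ac and no H3K27me3, against 45.0% on the numbered chromosomes, which lies inside that interval. These 23 were 1982 bp wide at the median, their fold enrichment had a median of 3.81, the widest measured 3557 bp, and H3K27ac covered 62.7% of their length. On unplaced sequences, 71 of 534 H3K4me3 peaks were broad, 68 of them overlapped H3K27me3 and only 3 (4.23%, 0.880 to 11.9) met the other conditions of the rule. Of the 2 broad peaks on W, 1 overlapped H3K27ac and both overlapped H3K27me3.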
